A study of Mus musculus with 24 samples.

Results

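The genes described here are the 10 that encode the MyD88 signaling chain and its feedback inhibitors: the adaptors Myd88 and Tirap, the kinases Irak4, Irak1 and Irak2, the ubiquitin ligases Traf6 and Traf3, and the inhibitors Irak3, Tnfaip3 and Nfkbia. They were chosen by name and function from the 53715 genes of the expression table, with no threshold on their values, although earlier results of these data were known. All 10 passed the filter on low values, as did 11230 genes in total. The values are read counts that the authors normalized with DESeq2, here called normalized counts.

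MyD88 is the adaptor that carries the signal of most Toll-like receptors (TLRs) and of the interleukin-1 receptor family into the cell. On activation it gathers the kinases IRAK4, IRAK1 and IRAK2, which hand the signal to TRAF6 and so to the kinases that free NF-kB from its inhibitor. The same pathway induces its own brakes, among them A20 (Tnfaip3), IkBalpha (Nfkbia) and the kinase-like protein IRAK-M (Irak3), and these brakes are well known from monocytes and macrophages that have met TLR ligands.

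Blood monocytes came from C57BL/6 mice aged 8-10 weeks, either wild-type (wt) or with conditional deletion of Notch2 driven by Lyz2-Cre, a Cre active in myeloid cells (N2ΔMy), on a background that the study describes as carrying a Cx3cr1 gfp reporter. The skin received 50 mg per day of Aldara cream, which holds 5% of the TLR7 agonist imiquimod (IMQ), or Sham cream for 4-5 days, and cells were sorted on day 5. There were 6 groups of 4 biological replicates: Ly6Chi (classical) monocytes of Sham and of IMQ mice of both genotypes, and Ly6Clo cells of IMQ mice of both genotypes. Ly6Clo names the sort gate. By the study, wt cells of this gate were enriched for genes of patrolling monocytes, and N2ΔMy cells of this gate had more of macrophage genes. No Ly6Clo group from Sham mice was analysed here, so treatment was compared only within Ly6Chi cells and subset only within IMQ mice. The study's results call the control mice Sham-treated, as the labels do, while its RNA methods call them untreated.

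Notch2, the targeted gene, was at 12656-20005 in the 12 wt libraries and 7240-11518 in the 12 N2ΔMy libraries. Its mean in N2ΔMy against wt was 9298 against 15211 in Ly6Chi Sham and 7616 against 13908 in Ly6Chi IMQ cells. In Ly6Clo IMQ cells it was 10752 against 17766. The whole gene was counted, not the deleted part alone. The study also found an incomplete loss of Notch2 by flow cytometry and calls the targeting of Ly6Chi monocytes partial. Depth inferred from the steps in the normalized values was 9524061-19756688 reads per library. Replicates 1 and 2 of every group carry library numbers of one series and replicates 3 and 4 those of a second, and the second series was shallower, at 9524061-15591633 against 14863384-19756688 reads. The summed level of 7 Ly6Chi markers was 58562-101576 in Ly6Chi and 1922-13985 in Ly6Clo libraries, and that of 7 Ly6Clo markers 8506-25083 and 50460-113606. T and NK cell markers summed to at most 29 in any library and B cell markers to at most 176. In sorted bulk samples, fewer cells that express a gene and less RNA per cell cannot be told apart.

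The largest difference among the 10 genes in the main fit was that of Irak3, which encodes the inhibitory IRAK-M: in IMQ mice it was 2.30-fold higher in Ly6Clo than in Ly6Chi monocytes of wt mice and 2.17-fold higher in N2ΔMy. Its lead over Tnfaip3 under IMQ was small. With quantile normalization the log2 differences were 1.05 in wt and 1.03 in N2ΔMy for Irak3, and -1.05 and -1.11 for Tnfaip3. Under IMQ treatment, Ly6Chi monocytes of both genotypes had less Tnfaip3, at a fold of 0.481 in wt and 0.469 in N2ΔMy, and less of the kinase Irak2. Traf6 and Tirap, which pass the signal on, were lower in Ly6Clo cells, while Myd88, Irak1, Irak4 and Nfkbia passed no main test. Between the genotypes, no member passed the main test in any subset or treatment. With the replicate number as a block, Traf3 was lower in N2ΔMy Ly6Clo cells (adjusted p = 0.00615, limma), in a fit that 16.5% of all genes pass. Tnfaip3 also passed with the block, at 0.00426, but not with the library series as covariate, at 0.189. Equal replicate numbers are not known to be pairs.

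Tests used limma on log2(normalized count + 1), with p-values adjusted by Benjamini-Hochberg over all 11230 genes, so differences of low genes are understated on this scale. A gene whose adjusted p was 0.05 or less passed the test, and was a differentially expressed gene (DEG) if its log2 difference was also at least 0.6 in size. Over the 6 groups, 6 members had an adjusted p of 0.01 or less in an F-test, beside 43.0% of all genes tested: Irak2, Irak3, Traf3, Traf6, Tirap and Tnfaip3. With replicates of equal number treated as a block, 9 did, adding Myd88, Irak1 and Irak4, beside 57.1% of all genes.

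**Figure D1:**
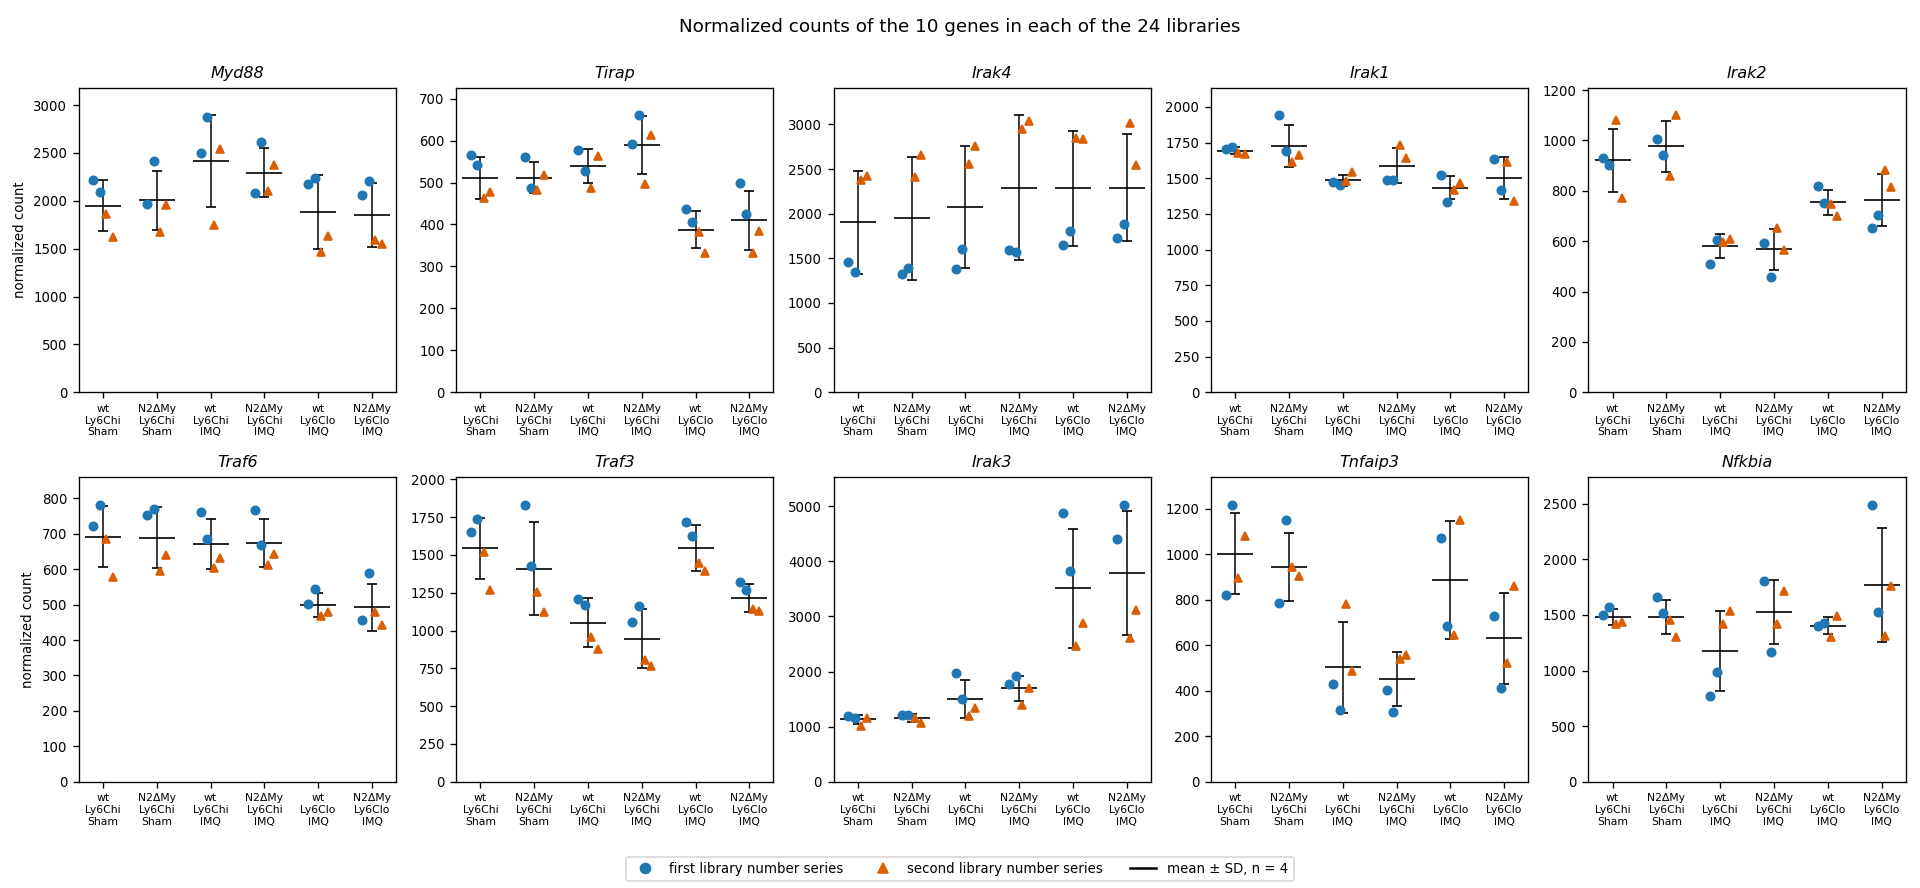
Normalized counts of the 10 genes (y axis, linear from 0) in each of the 24 libraries, by group (x axis); circles are libraries of the first and triangles of the second library number series, and bars give the mean and SD of 4 libraries. Irak3 stands highest in both Ly6Clo groups, Irak2 and Tnfaip3 are low in the Ly6Chi IMQ groups, and Irak4 splits by series in every group.

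Sequences of 3 loci are shown because Tnfaip3, Nfkbia and Traf3 hold, just before the start site, the letters GGG, any 1 base and ATTTCC on one strand or the other, a form of the NF-kB binding motif. Under IMQ their log2 differences in wt Ly6Chi cells were -1.06 ± 0.24 for Tnfaip3, -0.55 ± 0.13 for Traf3 and -0.38 ± 0.19 for Nfkbia, the last of which did not pass. In N2ΔMy Ly6Chi cells they were -1.09 ± 0.19, -0.57 ± 0.18 and 0.03 ± 0.14, and only Tnfaip3 passed. The differences between these genes were not tested. The sequences are from RefSeq on GRCm38.p6, 5′ to 3′ on the gene's strand, from 220 bases before the annotated start through the first 30 bases after it, with the match in capitals.
Tnfaip3 promoter, chr10:19015381-19015630, minus strand: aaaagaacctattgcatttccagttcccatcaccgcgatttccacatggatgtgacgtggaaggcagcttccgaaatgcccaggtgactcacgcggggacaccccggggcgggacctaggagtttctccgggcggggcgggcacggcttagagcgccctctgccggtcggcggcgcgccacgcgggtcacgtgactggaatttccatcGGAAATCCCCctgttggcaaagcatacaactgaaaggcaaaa
Nfkbia promoter, chr12:55492618-55492867, minus strand: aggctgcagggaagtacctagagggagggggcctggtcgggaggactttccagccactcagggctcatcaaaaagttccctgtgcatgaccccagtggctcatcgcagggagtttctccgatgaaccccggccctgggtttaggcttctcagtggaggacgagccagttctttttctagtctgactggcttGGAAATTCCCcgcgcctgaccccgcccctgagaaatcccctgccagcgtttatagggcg
Traf3 promoter, chr12:111166150-111166399, plus strand: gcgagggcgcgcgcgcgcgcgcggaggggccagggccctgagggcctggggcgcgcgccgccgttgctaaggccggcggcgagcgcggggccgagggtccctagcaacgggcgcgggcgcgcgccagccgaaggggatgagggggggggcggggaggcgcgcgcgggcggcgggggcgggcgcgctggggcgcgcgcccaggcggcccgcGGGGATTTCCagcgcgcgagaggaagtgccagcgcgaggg
The match begins 12 bases before the start in Tnfaip3, 29 in Nfkbia and 10 in Traf3. These are RefSeq start sites: the Tnfaip3 match lies inside the span that the files give for the gene, which begins farther upstream, and another RefSeq start of Tnfaip3 lacks it. These letters, picked after the wider search below had been seen, occur in 0.32% of 32851 mouse windows of 300 bases. The wider pattern of GGG, any 5 bases and CC on either strand occurs in 12 of the 14 windows of the members and in 50.8% of all windows. A match is a description of letters and says nothing of binding in these cells.

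Per kilobase of exon, the 2 most abundant members over the 24 libraries were Nfkbia, at a mean of 916 normalized counts per kb, and Myd88, at 802. They were followed by Irak3 at 580, Irak4 at 424 and Irak1 at 333. Traf3 at 175 and Irak2 at 172 were close to each other, and Tnfaip3 at 102, Tirap at 99.8 and Traf6 at 78.5 were the lowest. The inhibitor Irak3 had the widest range, from 276 to 1370 normalized counts per kb. Where exons of another gene lie on the opposite strand, as those of Twf1 on 395 of the 5021 exonic bases of Irak4, of Acaa1a on 290 of 2576 of Myd88 and of Tmbim4 on 192 of 3676 of Irak3, reads of the pair could be told apart only if the counting used strand, which is not given in the sources used here.

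Myd88 (chromosome 9, 119335934-119341411, minus strand) varied little between groups. In wt Ly6Chi cells it was at 2217, 2096, 1859 and 1617 in Sham and 2498, 2872, 1747 and 2546 in IMQ mice. In wt Ly6Clo cells of IMQ mice it was at 2178, 2237, 1465 and 1635, lower than the Ly6Chi library of the same replicate number in 4 of 4 cases, although the groups overlap. The Ly6Clo minus Ly6Chi log2 difference was -0.36 ± 0.18 (SE) in wt and -0.32 ± 0.14 in N2ΔMy cells, with adjusted p of 0.138 and 0.113 (limma). In the fit blocked by replicate number the adjusted p was 0.00179 and 0.0317. The IMQ minus Sham difference did not pass, at 0.30 ± 0.15 in wt and 0.20 ± 0.12 in N2ΔMy.

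Tirap (chromosome 9, 35184551-35200291, minus strand), the adaptor that brings MyD88 to TLR2 and TLR4 at the membrane, was lower in Ly6Clo cells. Ly6Chi cells of wt IMQ mice had 578, 528, 487 and 563 normalized counts and Ly6Clo cells 436, 405, 381 and 332, with no overlap. In N2ΔMy mice the Ly6Chi values were 592, 660, 497 and 613 and the Ly6Clo values 500, 426, 332 and 384, so the groups touch at 1 library. The log2 difference was -0.48 ± 0.12 in wt (adjusted p = 0.00962, limma) and -0.53 ± 0.15 in N2ΔMy (adjusted p = 0.0226). The N2ΔMy result was lost without any of 4 single libraries, Ly6Chi replicates 2 and 4 and Ly6Clo replicates 3 and 4, at adjusted p of 0.0532-0.0644. Without Ly6Chi replicate 3 or Ly6Clo replicate 1 it reached the size of a DEG, at -0.61 and -0.63. IMQ against Sham gave 0.08 ± 0.11 and 0.20 ± 0.11 in wt and N2ΔMy Ly6Chi cells, neither of which passed.

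Among the kinases, Irak4 (chromosome 15, 94543643-94581815, plus strand), which starts the cascade, followed the library number series. In N2ΔMy Ly6Chi Sham cells it was at 1326 and 1392 in the first series and 2415 and 2653 in the second. Over all groups the first series spanned 1326-1886 and the second 2379-3037, so no library of one series reached the other. The second series was 1.73-fold higher, a log2 difference of 0.79, with 0.62-0.91 in the single groups. Only 672 of the 11230 genes had a larger series difference, and the median size over all genes was 0.181. Irak4 passed no main test between groups, its smallest adjusted p being 0.67 (limma). At each of the 4 replicate numbers, N2ΔMy Ly6Chi cells of IMQ mice were above those of Sham mice, with 0.23 log2 and an adjusted p of 0.0332 with the block. In the other treatment and subset comparisons it did not pass with the block either, at adjusted p of 0.29 and 0.0694 in wt and 0.791 in N2ΔMy.

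Irak1 (chromosome X, 74013914-74023918, minus strand), the kinase phosphorylated by IRAK4, was the steadiest member, at 1333-1940 in all 24 libraries. In wt Ly6Chi cells it was at 1705, 1722, 1679 and 1669 in Sham and 1474, 1454, 1478 and 1543 in IMQ mice. These groups do not overlap, yet the difference was small, -0.19 ± 0.07 on the log2 scale, and its adjusted p of 0.0901 (limma) did not pass. It did not pass with the replicate block either, at 0.0604, but did with the library series as covariate, at 0.048. In N2ΔMy Ly6Chi cells the groups overlap and the difference was -0.12 ± 0.09.

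Irak2 (chromosome 6, 113638467-113695026, plus strand), a kinase that sustains the late phase of TLR signaling, fell under IMQ in both genotypes. In wt Ly6Chi cells it was at 930, 903, 1080 and 772 in Sham and 509, 605, 595 and 610 in IMQ mice. N2ΔMy Ly6Chi cells had 1007, 942, 860 and 1099 in Sham and 593, 457, 653 and 564 in IMQ mice. Every IMQ library lay below every Sham library. The log2 difference was -0.66 ± 0.12 in wt (adjusted p = 0.00347, limma) and -0.79 ± 0.13 in N2ΔMy (adjusted p = 0.00251). In the wt comparison the size fell to 0.58, under the DEG minimum, without Sham replicate 3, and was at the minimum, at 0.60, just missing it, without IMQ replicate 1. Within the series the differences were -0.72 and -0.60 in wt and -0.90 and -0.68 in N2ΔMy, the wt second series at an adjusted p of 0.0845.

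In Ly6Clo cells of IMQ mice, Irak2 stood between those levels. The values were 817, 753, 749 and 698 in wt and 654, 705, 881 and 815 in N2ΔMy mice. All were above the Ly6Chi IMQ libraries of the same genotype. The Ly6Clo minus Ly6Chi difference was 0.38 ± 0.10 in wt (adjusted p = 0.014, limma) and 0.43 ± 0.14 in N2ΔMy (adjusted p = 0.0449), under the DEG minimum in size. The N2ΔMy result was lost without any of 6 single libraries (Ly6Chi replicates 1, 2 and 4 and Ly6Clo replicates 2, 3 and 4), at adjusted p of 0.0567-0.114, and within the series it was 0.38 and 0.48. The wt difference was 0.50 in the first and 0.26 in the second series.

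Traf6 (chromosome 2, 101678429-101701669, plus strand), the ubiquitin ligase that links the IRAKs to TAK1 and the IKK complex, was level under IMQ and lower in Ly6Clo cells. Ly6Chi cells of wt mice had 722, 781, 685 and 577 normalized counts in Sham and 762, 684, 602 and 631 in IMQ mice, a difference of -0.04 ± 0.12 that did not pass. Ly6Clo cells of wt IMQ mice had 501, 543, 468 and 478, each below every wt Ly6Chi library. The Ly6Clo minus Ly6Chi difference in IMQ mice was -0.42 ± 0.11 in wt (adjusted p = 0.0112, limma). In N2ΔMy mice, Ly6Chi values of 767, 669, 612 and 643 stood against Ly6Clo values of 456, 589, 479 and 442, with no overlap and a difference of -0.46 ± 0.13 (adjusted p = 0.0225). That result was lost without Ly6Chi replicate 1 or 2 or Ly6Clo replicate 1 or 4, at adjusted p of 0.0501-0.0659.

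Traf3 (chromosome 12, 111166370-111267153, plus strand) is a ligase recruited to MyD88 that favors type I interferon over NF-kB cytokine output. In wt Ly6Chi cells it fell from 1649, 1735, 1521 and 1268 in Sham to 1209, 1166, 955 and 880 in IMQ mice, with no overlap. N2ΔMy cells had 1830, 1428, 1255 and 1124 in Sham and 1055, 1162, 802 and 768 in IMQ mice, lower at 4 of 4 replicate numbers but with overlap at 1 library. The log2 difference was -0.55 ± 0.13 in wt (adjusted p = 0.0161, limma) and -0.57 ± 0.18 in N2ΔMy (adjusted p = 0.0585, with the replicate block 0.00299). The within-series differences hardly varied, at -0.51 and -0.60 in wt and -0.55 and -0.60 in N2ΔMy. Traf3 became a DEG in wt without Sham replicate 4, IMQ replicate 1 or IMQ replicate 2, at -0.65, -0.63 and -0.61, and in N2ΔMy without Sham replicate 4 (-0.67, adjusted p = 0.0453) or IMQ replicate 2 (-0.68, adjusted p = 0.0418).

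In wt Ly6Clo cells of IMQ mice Traf3 lay within the range of the Sham cells, at 1718, 1628, 1449 and 1391. The Ly6Clo minus Ly6Chi difference there was 0.56 ± 0.12 (adjusted p = 0.00473, limma), and 0.63, 0.62 or 0.61, a DEG, without Ly6Chi replicate 1, Ly6Chi replicate 2 or Ly6Clo replicate 4. N2ΔMy Ly6Clo cells had 1319, 1271, 1143 and 1129, and their difference from Ly6Chi cells was 0.38 ± 0.14 (adjusted p = 0.0751, with the block 0.0111). All 4 N2ΔMy Ly6Clo libraries lay below all 4 of wt, and 12.8% of all genes had no overlap in that comparison. That genotype difference was -0.35 ± 0.10 with an adjusted p of 0.0783 that did not pass, and 0.00615 with the replicate block.

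Irak3 (chromosome 10, 120141648-120202130, minus strand) encodes IRAK-M, which binds the MyD88 complex and damps it, and is found mainly in monocytes and macrophages. Ly6Chi Sham cells had 1186, 1163, 1014 and 1163 normalized counts in wt and 1207, 1218, 1153 and 1064 in N2ΔMy mice. In Ly6Chi cells of IMQ mice the values were 1980, 1506, 1191 and 1332 in wt and 1768, 1925, 1385 and 1708 in N2ΔMy. Every IMQ library was above every Sham library of its genotype. The difference was 0.38 ± 0.14 in wt, which did not pass (adjusted p = 0.0958, limma; 0.0108 with the replicate block), and 0.54 ± 0.11 in N2ΔMy, which did (adjusted p = 0.00801). Without IMQ replicate 3 the N2ΔMy difference was 0.63, a DEG.

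The Ly6Clo libraries held the highest Irak3 values, 4883, 3825, 2456 and 2880 in wt and 4404, 5022, 2607 and 3111 in N2ΔMy mice. None reached down to the Ly6Chi range. The Ly6Clo minus Ly6Chi difference was 1.20 ± 0.21 in wt (adjusted p = 0.00129, limma; permutation p = 0.0286, exact, 2-sided, the smallest that 4 against 4 allows). In N2ΔMy it was 1.12 ± 0.19 (adjusted p = 0.00163). It was seen in both series, at 1.32 and 1.08 in wt and 1.35 and 0.89 in N2ΔMy. Over the 24 libraries the genes whose log2 values followed Irak3 most closely were Grk6 (Pearson r = 0.963), Wdfy3 (0.962) and Gpr137b (0.96), a description over libraries that fall into 2 subsets.

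Per kb of exon, the level of the inhibitory Irak3 was set against that of the active Irak2. Their ratio averaged 1.5 ± 0.281 (SD, n = 4) in wt and 1.44 ± 0.199 in N2ΔMy Sham cells, 3.17 ± 1.03 and 3.7 ± 1.03 in Ly6Chi IMQ cells, and 5.54 ± 1.4 and 6.19 ± 2.5 in Ly6Clo IMQ cells. The lowest Ly6Chi IMQ library, at 2.4, was above the highest Sham library, at 1.81. The Ly6Clo ratios of 3.55-8.55 overlap those of Ly6Chi IMQ cells, and are lower in the second series. The ratio was formed after the levels had been seen and was not tested.

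**Figure D2:**
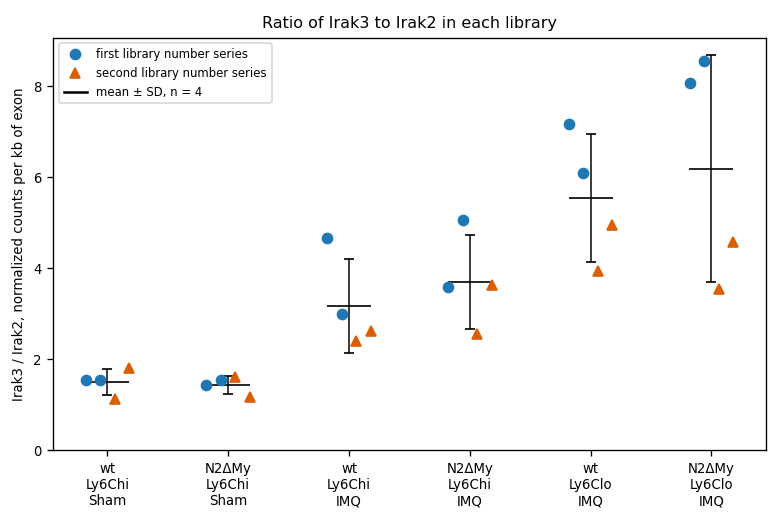
Ratio of Irak3 to Irak2 in normalized counts per kb of exon (y axis, linear from 0) in each library of the 6 groups (x axis); circles are the first and triangles the second library number series, bars the mean and SD of 4 libraries. Sham libraries sit between 1.13 and 1.81, Ly6Chi IMQ libraries between 2.4 and 5.06 and Ly6Clo IMQ libraries between 3.55 and 8.55.

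Tnfaip3 (chromosome 10, 19000910-19015657, minus strand) encodes A20, which removes ubiquitin chains that TRAF6 builds. In wt Ly6Chi cells it fell from 819-1216 (mean 1002 ± 179, SD, n = 4) in Sham to 429, 316, 780 and 485 in IMQ mice. In N2ΔMy Ly6Chi cells it fell from 787, 1148, 943 and 903 to 401, 307, 540 and 556. No IMQ library reached the lowest Sham library of its genotype. The difference was -1.06 ± 0.24 in wt (adjusted p = 0.0127, limma) and -1.09 ± 0.19 in N2ΔMy (adjusted p = 0.0046). It was larger in the first series, at -1.44 in both genotypes, than in the second, at -0.67 in wt, which did not pass there (adjusted p = 0.112), and -0.75 in N2ΔMy. Without the filter on low values the adjusted p was 0.12 and 0.0529.

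Ly6Clo cells of IMQ mice had 1072, 686, 646 and 1149 normalized counts of Tnfaip3 in wt and 727, 411, 521 and 859 in N2ΔMy mice. These ranges overlap the Ly6Chi IMQ libraries. The Ly6Clo minus Ly6Chi difference was 0.85 ± 0.27 in wt, a DEG at an adjusted p of 0.0309 (limma). It was lost without any of 5 single libraries (Ly6Chi replicates 1, 2 and 4 and Ly6Clo replicates 1 and 4), at adjusted p of 0.0566-0.0853, and was 1.22 in the first and 0.49 in the second series. In N2ΔMy it was 0.46 ± 0.25 (adjusted p = 0.206, limma). The adjusted p was 0.0273 with the replicate block and 0.0777 with the library series as covariate. N2ΔMy Ly6Clo cells were below wt at 4 of 4 replicate numbers, by a difference of -0.51 ± 0.26 that did not pass (adjusted p = 0.316, limma). The adjusted p was 0.00426 with the block and 0.189 with the library series as covariate.

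Tnfaip3 is also an early-response gene, so the stress and immediate early genes that can respond to cell handling are given beside it. Their summed level, over 12 genes with Egr1 and Atf3 among them, was 11713-19125 in wt Sham, 6537-14985 in wt Ly6Chi IMQ and 6281-12036 in wt Ly6Clo IMQ libraries. In N2ΔMy libraries the sums were 10735-19604, 8202-16269 and 10440-14117. The ranges of Sham and IMQ overlap in both genotypes. Of 11 genes tested, 4 fell under IMQ in wt (Egr1 by 1.61 and Atf3 by 1.12 on the log2 scale), and in N2ΔMy 2 fell and 1 rose, beside 15.6% and 13.7% of all genes. With the replicate block 8 and 6 passed, beside 26.3% and 20.3%. Between genotypes in Ly6Clo cells, where Tnfaip3 was at -0.51, the median of the 11 was 0.77 and Atf3 was higher by 1.36. There 1 of the 11 passed in the main fit and 5 with the block, beside 6.41% and 16.5% of all genes. Their part in the Tnfaip3 results was not tested.

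Nfkbia (chromosome 12, 55489410-55492647, minus strand) encodes IkBalpha, which holds NF-kB in the cytoplasm, and passed no main test. In wt Ly6Chi cells it was at 1497, 1571, 1420 and 1435 in Sham and 771, 991, 1421 and 1533 in IMQ mice. The 2 low IMQ libraries are the 2 of the first series, in which the difference was -0.81 (adjusted p = 0.0134, limma, 2 against 2), while it was 0.05 in the second. Over both series it was -0.38 ± 0.19 (adjusted p = 0.209). N2ΔMy Ly6Chi cells had 1658, 1522, 1452 and 1298 in Sham and 1802, 1166, 1423 and 1713 in IMQ mice. The highest value of all, 2489, was in N2ΔMy Ly6Clo replicate 1.

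**Figure D3:**
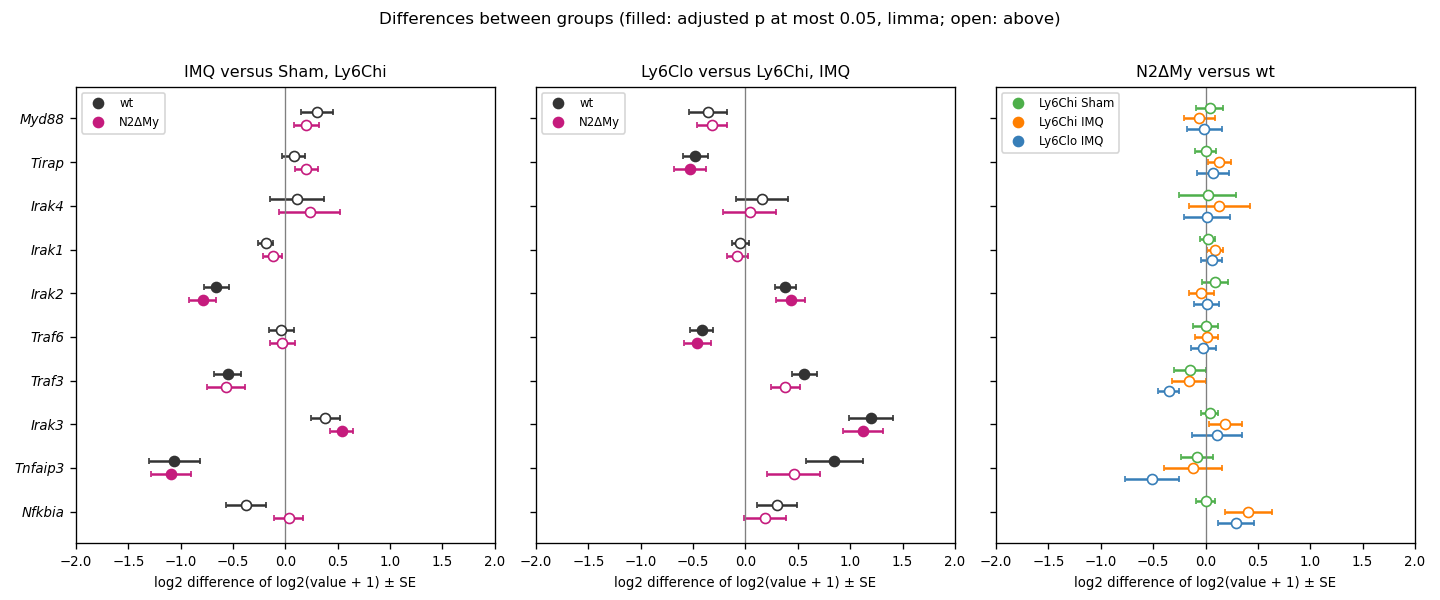
Log2 differences of log2(normalized count + 1) with their SE (x axis) for the 10 genes (rows): IMQ against Sham in Ly6Chi cells and Ly6Clo against Ly6Chi cells of IMQ mice, each in wt and N2ΔMy, and N2ΔMy against wt in 3 settings. Filled points passed the test (limma); Irak3 lies farthest right in the subset panel, at 1.20 and 1.12, Tnfaip3 farthest left in the treatment panel, at -1.06 and -1.09, and no point is filled in the genotype panel.

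Counted over the list, the treatment comparison in Ly6Chi cells had 3 of 10 members past the test in wt, all lower, beside 15.6% of all genes tested, 8.65% being lower. In N2ΔMy 3 of 10 passed, 1 higher and 2 lower, beside 13.7% of genes, of which 6.73% higher and 7.02% lower. DEGs were 2 in each genotype, Irak2 and Tnfaip3, both lower, beside 9.49% and 8.7% of all genes, or 5.07% and 4.55% lower. Groups did not overlap for 5 members in wt and 3 in N2ΔMy, beside 21.5% and 19.5% of genes. With the replicate block 4 and 5 members passed, beside 26.3% and 20.3% of genes. Per the study, both sorts took lineage-negative, CD115+ and MHC-II- cells, a gate that leaves out MHC-II+ dendritic cells and, if the lineage stain held Ly6G as in its cell enrichment, neutrophils. Markers of dendritic cells moved with treatment: their sum over 6 genes was 823-1483 in wt Sham and 270-531 in wt Ly6Chi IMQ, and 967-1687 and 296-410 in N2ΔMy; their part in the member results was not tested. Of 10 neutrophil markers, 5 were tested. S100a8 rose from a mean of 3.75 to 1323 and S100a9 from 0 in all 4 Sham libraries to 863 in wt, and they rose from 4.25 to 1569 and from 1.75 to 1018 in N2ΔMy, while Csf3r fell from 5755 to 4211 in wt and Mmp9 rose in N2ΔMy to a mean of 11.5. The sums, most of which is Csf3r, overlap between Sham (5526-6283) and Ly6Chi IMQ (5333-8732) in wt but not in N2ΔMy (4832-5399 and 5785-9012); their part was not tested either. Of the 7 Ly6Clo markers, Cd300e rose under IMQ in Ly6Chi cells, from a mean of 20 to 276 in wt and from 1.75 to 112 in N2ΔMy, and Spn rose by 0.78 in wt; the summed levels were 15460-17161 in Sham and 13829-25083 in IMQ libraries of wt and 9741-12410 and 8506-15807 in N2ΔMy, and their part in the Irak3 result was not tested. Macrophage markers, 7 in all, summed to 1886-2000 in Sham and 2180-2969 in Ly6Chi IMQ libraries of wt and 2064-2421 and 3230-4167 in N2ΔMy, with Adgre1 higher in both genotypes and Mertk in N2ΔMy; their part was not tested.

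In the subset comparison in IMQ mice, 6 of 10 members passed in wt, 4 higher and 2 lower, beside 35.6% of all genes tested, 18.3% higher and 17.3% lower. In N2ΔMy 4 of 10 passed, 2 in each direction, beside 24.9%, or 1463 genes higher and 1329 lower. DEGs were Irak3 and Tnfaip3 in wt and Irak3 in N2ΔMy, all higher, beside 24.6% and 17.4% of genes, or 11.9% and 9.01% higher. Groups did not overlap for 5 and 3 members, beside 35.4% and 27.8%. With the replicate block 7 members passed in each genotype, beside 50.4% and 35.3% of genes. Macrophage markers moved with subset: their sum over 7 genes was 2180-2969 in Ly6Chi and 3968-6163 in Ly6Clo libraries of wt and 3230-4167 and 7782-11872 in N2ΔMy IMQ mice, with 2 of the tested genes higher in wt and 6 in N2ΔMy (C1qb from 43 to 1023 and Cd5l from 1 to 174). Dendritic cell markers summed to 86-568 in wt and 212-1690 in N2ΔMy Ly6Clo libraries, and against Ly6Chi cells Zbtb46 rose and Flt3 fell in wt, while 3 of the list rose in N2ΔMy; the part of either list in the member results was not tested. Neutrophil markers summed to 5333-8732 in Ly6Chi and 2978-3973 in Ly6Clo libraries of wt and 5785-9012 and 1997-2963 in N2ΔMy, 3 of the 5 tested being lower in wt and 3 lower and 1 higher in N2ΔMy (S100a8 at -5.30 and -4.33 and S100a9 at -4.07 and -3.64 on the log2 scale); their part was not tested. The treatment and subset comparisons share the Ly6Chi IMQ libraries, and are given side by side: Irak2, Traf3 and Tnfaip3 had differences of -0.66, -0.55 and -1.06 in the treatment and 0.38, 0.56 and 0.85 in the subset comparison of wt mice. By contrast, Irak3 was positive in both, at 0.38 and 1.20.

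The genotype comparisons asked whether these levels differ where Notch2 is lowered, since its RNA was reduced in N2ΔMy cells and not absent. In Ly6Chi Sham cells the 10 differences lay between -0.15 and 0.09 on the log2 scale, and 0 members passed at adjusted or at unadjusted p (limma), beside 0.0178% and 5.21% of all genes. For Irak3 the 95% interval there was -0.14 to 0.22. In Ly6Chi IMQ cells they lay between -0.16 and 0.41, and again 0 passed at either level (limma), beside 0.0267% and 6.05% of genes. The 0.41 is Nfkbia, whose 95% interval of -0.09 to 0.90 is wide. In Ly6Clo IMQ cells 0 passed after adjustment (limma), beside 6.41% of genes, and 1, Traf3, at an unadjusted p under 0.05, beside 19.5%. With the replicate block 2 members, Traf3 and Tnfaip3, passed there, beside 16.5% of genes.

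The interactions tested whether the response of a member differed by genotype. For treatment by genotype 0 members passed and 0 at unadjusted p (limma), beside 0.0% and 1.58% of all genes, and for subset by genotype likewise 0 and 0, beside 1.06% and 8.33%. The interval of the interaction was -0.24 to 0.55 for Irak3 under treatment and -0.75 to 0.59 between subsets, and -0.75 to 0.67 and -1.25 to 0.47 for Tnfaip3, so differences within these bounds are not excluded for these genes. The Ly6Clo sorts of the genotypes were not alike in other genes. Macrophage markers, 7 in all, summed to 3968-6163 in wt and 7782-11872 in N2ΔMy Ly6Clo libraries, Ly6Chi markers to 1922-4247 and 9445-13985, and Ly6Clo markers to 93987-113606 and 50460-62948; their part in the Traf3 and Tnfaip3 values was not tested.

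**Figure D4:**
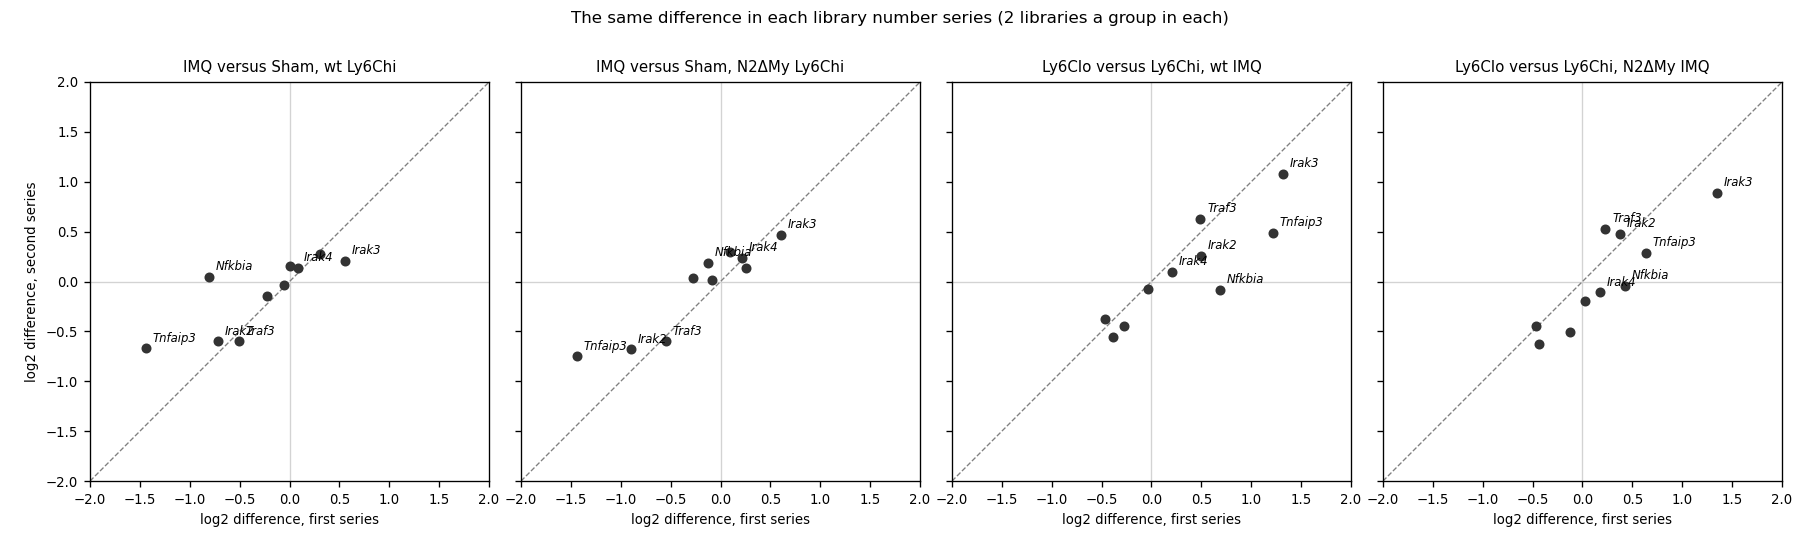
Log2 difference of each of the 10 genes in the first (x axis) and in the second library number series (y axis), with 2 libraries a group in each, for treatment and subset comparisons of both genotypes; the dashed line marks equal values. Traf3, Irak2 and Irak3 have the same sign in both series in each panel, Tnfaip3 is larger in the first series, and Nfkbia in wt is at -0.81 and 0.05 under treatment.

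The genes around the chain were taken from lists fixed by function, and the receptors come first. Their counts stand beside the shares of all genes that passed the same comparison: under IMQ 15.6% in wt and 13.7% in N2ΔMy (26.3% and 20.3% with the replicate block), between subsets 35.6% and 24.9% (50.4% and 35.3%), and between genotypes in Ly6Clo cells 6.41% (16.5%). Of 16 receptors that signal through MyD88, 12 were tested, and under IMQ 3 rose and 2 fell in wt Ly6Chi cells and 1 rose and 2 fell in N2ΔMy, or 7 and 3 in all with the replicate block. Tlr9, the receptor for CpG DNA, fell from 2117 ± 227 to 786 ± 130 in wt (SD, n = 4), a log2 difference of -1.44, and by 1.33 in N2ΔMy. Tlr11 fell, at -1.78 and -2.31, and Il18rap, a chain of the interleukin-18 receptor, rose by 1.91 and 2.75. In Ly6Clo against Ly6Chi cells 6 receptors were lower in wt and 4 in N2ΔMy, none higher (9 and 5 passed with the block), among them the flagellin receptor Tlr5 (-5.04 and -3.26) and Tlr2 (-2.19 and -1.13). Tlr11 was among those of wt (-2.73), at low means of 2.0 in Ly6Clo and 17.8 in Ly6Chi cells. Between genotypes 4 receptors passed in Ly6Clo cells, and 6 with the block. Tlr7, the receptor for imiquimod, was lower in N2ΔMy than in wt Ly6Clo cells, at 2042 ± 302 against 3347 ± 493, while Tlr2 and Tlr9 were higher by 1.6 and 0.88.

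Below the members stands the TAK1, IKK and ubiquitin machinery. Of 14 genes tested out of 16, 2 fell under IMQ in wt and 1 in N2ΔMy, none a DEG, and 3 passed in each with the replicate block. Between subsets 3 passed in wt and 2 in N2ΔMy (7 and 2 with the block): Map3k8 (Tpl2, a kinase that feeds ERK) was higher in Ly6Clo cells by 0.84 in wt and 0.76 in N2ΔMy, and Peli2, a ligase that acts on IRAKs, lower by 0.89 and 1.44 in size. Among 10 NF-kB subunits and other IkB proteins, 4 fell in wt and 5 in N2ΔMy under IMQ and none rose, beside 8.65% and 7.02% of all genes lower, and between subsets 3 were higher and 1 lower in each genotype (6 passed with the block in wt, 5 in N2ΔMy), beside the 35.6% and 24.9% of all genes that passed. Nfkbie (IkBepsilon) fell from 1228 ± 91.0 to 568 ± 94.5 in wt, by 1.12, and by 1.16 in N2ΔMy, and Nfkbid by 0.82 and 0.81. In Ly6Clo cells Nfkbiz (IkBzeta) was higher by 1.77 in wt and 1.6 in N2ΔMy, at 3165 ± 516 against 1035 ± 90.9 in N2ΔMy, and Bcl3 was lower, at -1.30 and -0.79.

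Of 14 other negative regulators, 6 rose and none fell from Ly6Chi to Ly6Clo cells in each genotype (9 passed with the block in each), beside 35.6% and 24.9% of all genes in either direction (50.4% and 35.3% with the block), and the median log2 difference over the list was 0.42 in wt and 0.36 in N2ΔMy, beside -0.01 over all genes. Tnip1, which partners A20, was at 1.7 in wt and 1.06 in N2ΔMy, Otud7b, a deubiquitinase, at 1.5 and 1.8, and Tnip3 at 1.4 and 1.53. Tnip1 and Socs3 were lower in N2ΔMy than in wt Ly6Clo cells, by 0.83 and 0.80 in size, and Otud7b higher by 1.37. Under IMQ 1 of the 14 rose and 1 fell in each genotype (3 passed with the block): Socs3, an inhibitor of cytokine receptors, rose from 804 ± 123 to 2349 ± 520 in wt Ly6Chi cells, by 1.53, and by 1.61 in N2ΔMy, and Socs1, of the same family and at a mean under 50, which is named here because it is the gene that fell, was at -1.64 and -2.35. In the TRIF branch, the MyD88-independent arm, 1 of 7 genes rose under IMQ in each genotype, the kinase Ikbke by 1.05 and 0.86, and 1 fell in wt, Azi2, at -0.29, which is no DEG and is named as the gene that fell. Between subsets 4 of the 7 passed in wt and 2 in N2ΔMy, none a DEG, and 6 and 4 with the block, 1 of those in wt being a DEG. The list of 14 NF-kB target cytokines had 7 tested members: Cxcl10 fell under IMQ, at -3.61 and -3.62. It was also lower in Ly6Clo cells of wt mice, at -2.92, with low means of 1.25 in Ly6Clo and 14.5 in Ly6Chi cells. Il1b was higher in Ly6Clo cells by 3.77 and 3.02 and Tnf by 1.79 and 1.22, and Ccl3 by 2.29 in wt. With the block 3 of the 7 passed under IMQ in wt, against 1, 4 between subsets in N2ΔMy, against 2, and 3 between genotypes in Ly6Clo cells, against 0 (limma).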

How the data were processed

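Total RNA of FACS-sorted blood monocytes was sequenced in 24 libraries, 6 groups of 4. Per the labels and the study's methods, stranded total-RNA libraries (SMARTer Pico) were trimmed with Trim Galore 0.4.4 and aligned with STAR 2.5.3a to GRCm38.p6; the counter and its strand setting are not given in the sources used here. The authors deposited counts normalized with DESeq2 and rounded to whole numbers, a normalized score and not raw counts, so count models were not used. The table's further columns hold the authors' log2 fold changes, errors, test statistics, p-values and base means, and were not used.

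limma 3.58.1 (R 4.3.3; lmFit, eBayes with trend) was run on log2(value + 1) of the 11230 genes that reached 50 in 1 library or more, on the libraries of each comparison, with Benjamini-Hochberg adjustment. Exact 2-sided permutation tests over the 70 splits served single genes, with a smallest p of 0.0286. In simulated data of the wt treatment comparison, 107 of 200 genes changed 2-fold and 57 of 200 changed 1.6-fold were recovered among 11230. Same-numbered replicates deviated together at every number and in every comparison (correlation 0.16 to 0.619). Equal numbers always share a library number series, so this check cannot tell pairing by number from the series. The labels name no pairs, and Sham and IMQ libraries, like those of the genotypes, come from different mice. The fit with the replicate number as a block was a further setting. It is given where it changes the call of a member or moves a printed count of a list by over 1.5 times. The series design calls the samples biological replicates. The largest share of equal values between libraries was 1.53%, so none was a duplicate. The design foresaw count models for raw counts; the unit called for limma instead.

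All 10 members were named. From the other lists, genes were named among the DEGs with the 3 largest differences per list and comparison and a mean of at least 50 in a group, except genes named as markers or as the 1 gene of a list that fell. Tlr11 and Cxcl10 between subsets in wt are a further exception, at means under 50. The members and lists were chosen with earlier results of these data known. The narrower promoter letters and the ratio of Irak3 to Irak2 were chosen after the values were seen. Promoter windows matched 10 of 10 members by symbol. Erythroid and platelet markers summed to 32-1699 per library.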

Additional observations from a re-analysis of the deposited data

Results flagged for a closer look

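Over 60 combinations of member and group, 2 held a library set apart from the other 3 by Dixon's criterion for 4 samples (critical value 0.829), where chance alone flags about 1 in 20 groups. Irak2 in wt Ly6Chi IMQ cells was at 509 in replicate 1 and 595-610 in the others, a gap of 0.851 of the range. Irak3 in wt Ly6Chi Sham cells was at 1014 in replicate 3 and 1163-1186 in the others, a gap of 0.866 of the range.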

How the results depend on the processing

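Of 1870 recomputed member differences, 14 lost a DEG call and 16 gained one. Only differences that were DEGs in the main fit had a call to lose, so 1870 is no base for the 14. Most losses were of Tnfaip3 between subsets in wt, the others of Irak2 and Tnfaip3 under IMQ. That Tnfaip3 call between subsets was lost without any of 5 single libraries (adjusted p of 0.0566-0.0853, limma). It was also lost without the filter (0.187), without the trend in eBayes (0.0657) and in the second series (0.317). The sign turned in 0 of 304 recomputed from the 16 differences that passed the test and in 131 of 1566 from the 74 that did not; the count of members past the F-test was 2 in the second series alone, against 6. The number of DEGs among the members under IMQ was 2 in each genotype. It was 1 in wt and 1 in N2ΔMy without the filter on low values, where Tnfaip3 was lost, and 0 and 1 with the threshold moved to an adjusted p of 0.01 and a 2-fold minimum. In wt it was 0 in the second series alone, 3 in the first, and 1-3 when single replicates were left out, 1 being without Sham replicate 3 and 3 without Sham replicate 4 or IMQ replicate 2. In N2ΔMy it was 2-3 with single replicates left out and 3 in the first series. Between subsets the number was 2 in wt and 1 in N2ΔMy. In wt it was 1 without the filter, 1 without the trend in eBayes, 1 at the stricter threshold, and 1-2 with single replicates left out, 1 being without Ly6Chi replicate 4 or Ly6Clo replicate 1. In N2ΔMy it was 2 in the second series and 1-2 with single replicates left out, 2 being without Ly6Chi replicate 3 or Ly6Clo replicate 1. With no minimum fold it was 6 in wt and 4 in N2ΔMy. The cause of these shifts was not tested.

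The replicate block left every count of DEGs among the members as it was and, beside the adjusted p given above, changed no other call of a member; over all genes it moved the DEGs between genotypes from 537 to 939 in Ly6Clo and from 3 to 54 in Ly6Chi IMQ cells, and those in the genotype by subset interaction from 116 to 271. Quantile normalization, other pseudocounts, a filter on at least 4 libraries, the series as covariate and a fit of all 24 libraries kept each number of DEGs among the members within 1.5 times. Over all genes the series as covariate gave 29 DEGs between genotypes in Ly6Chi IMQ cells, 830 in Ly6Clo cells and 210 in the interaction, and the fit of all 24 libraries 15 in Ly6Chi IMQ cells. The 720 genes that passed between genotypes in Ly6Clo cells were 180 in the second series alone and 260 without the filter on low values. They were 419 and 473 without wt replicate 1 or 2 and 452 and 464 without N2ΔMy replicate 1 or 2. The 119 in the genotype by subset interaction were 18 in the second series alone, 77 without wt Ly6Chi replicate 2 and 182 without wt Ly6Clo replicate 3. The 3 in Ly6Chi IMQ cells were 0-4 without single replicates. DESeq2 or edgeR in place of limma was not run, since the values are not raw counts. The second series held 9524061-15591633 reads per library against 14863384-19756688 in the first; the part of depth in the fits within each series was not tested.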
